A study of Mus musculus with 27 samples.

Results

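Cytoplasmic small RNA of mouse neural progenitors (mNPC) was set against that of mouse embryonic stem cells (mESC), over every small RNA that the deposited table lists. The comparison used 6 of the 27 libraries of the series, 3 of mNPC cytoplasm and 3 of mESC cytoplasm, and all 1013 entries of the table. An entry is a line of the table: a miRNA hairpin, a mature miRNA arm, or a tRNA, tRNA fragment, rRNA, snoRNA, snRNA or piRNA. Of the 1013 entries, 605 were above 0 in at least 1 of the 6 libraries and 196 in all 6.

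The mNPC were a progenitor line derived in the depositing laboratory and kept in DMEM/F12 with B27 lacking vitamin A, with EGF and FGF given daily at 10 ng/ml each. The mESC were the E14 line, grown on gelatin with LIF. From both, RNA below 200 nt was taken from the cytoplasm after subcellular fractionation, depleted of rRNA, and prepared as libraries size-selected at 120 to 160 bp, and sequenced from 1 end for 100 bp. The remaining libraries of the series are the nucleoplasm and chromatin of the same lines, used below to ask whether a difference was also seen there, and primary cortical neurons. The neuron libraries entered only the estimate of the spread, the choice of entries to test and a scaling tried as an alternative. Each line stands for its cell type here, and mNPC and mESC differ in line, medium and growth factors together, which cannot be told apart. The series calls the 3 libraries of a group biological triplicates. Since no label ties them to separate cultures, p-values here reflect only how these libraries vary, which may be technical.

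A mature miRNA is a strand cut from a hairpin precursor and loaded into an Argonaute protein, where its seed, the bases near its 5′ end, pairs with target mRNAs. In embryonic stem cells the miR-290 to miR-295 cluster supplies much of the miRNA pool and speeds passage through the cell cycle, while LIN28 blocks the maturation of let-7 precursors. As neural cells form, let-7, miR-9 and miR-125 accumulate and restrain stem cell regulators.

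Mature sequences are shown for the miRNAs on which the comparison turns, from RefSeq (GRCm38.p6), 5′ to 3′, with the seed (bases 2 to 8) in capitals. Of the 453 mature entries of the table, 395 matched a RefSeq sequence. The first set holds miRNAs that were higher in mNPC, together with miR-181c-5p and miR-181d-5p, which share the seed of miR-181a-5p and were lower. The members of the let-7 family share 1 seed, as do the members of the miR-181 family, and miR-125b and miR-351 share another.
let-7f-5p: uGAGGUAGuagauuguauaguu
let-7i-5p: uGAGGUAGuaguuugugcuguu
miR-98-5p: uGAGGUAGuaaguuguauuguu
miR-9-5p: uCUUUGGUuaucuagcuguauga
miR-181a-5p: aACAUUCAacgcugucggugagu
miR-181b-5p: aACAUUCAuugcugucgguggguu
miR-181c-5p: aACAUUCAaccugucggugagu
miR-181d-5p: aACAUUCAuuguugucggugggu
miR-125b-5p: uCCCUGAGacccuaacuuguga
miR-351-5p: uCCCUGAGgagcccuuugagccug
miR-99a-5p: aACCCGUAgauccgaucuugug
miR-488-3p: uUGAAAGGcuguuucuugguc

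The second set holds miRNAs that were abundant in mESC cytoplasm and at or near 0 in mNPC cytoplasm. The miR-183, miR-96 and miR-182 transcript carries 3 seeds, while the miR-290 to miR-295 cluster repeats 1 seed in several 3p arms and another in several 5p arms.
miR-182-5p: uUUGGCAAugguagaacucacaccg
miR-96-5p: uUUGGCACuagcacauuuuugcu
miR-183-5p: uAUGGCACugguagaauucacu
miR-295-3p: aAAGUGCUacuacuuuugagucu
miR-291a-3p: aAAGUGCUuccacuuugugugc
miR-294-3p: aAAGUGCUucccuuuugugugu
miR-293-5p: aCUCAAACugugugacauuuug
miR-292a-5p: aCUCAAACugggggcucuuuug
miR-290a-5p: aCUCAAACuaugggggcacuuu
miR-127-3p: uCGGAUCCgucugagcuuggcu
miR-541-5p: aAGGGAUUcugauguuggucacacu
miR-410-3p: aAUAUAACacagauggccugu

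The third set shows seed families whose members went different ways. miR-92a, miR-363, miR-25 and miR-92b have 1 seed but are spread over several loci, as are miR-16, miR-322, miR-195a and miR-497a.
miR-92a-3p: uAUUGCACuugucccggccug
miR-363-3p: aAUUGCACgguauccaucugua
miR-25-3p: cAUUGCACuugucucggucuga
miR-92b-3p: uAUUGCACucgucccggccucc
miR-16-5p: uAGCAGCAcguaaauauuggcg
miR-322-5p: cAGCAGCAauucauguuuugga
miR-195a-5p: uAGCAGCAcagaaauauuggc
miR-497a-5p: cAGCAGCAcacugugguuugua

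Values are in RPM, for which the authors divided the reads of an entry by the size of its library. Each library had a lowest value above 0, between 22.5 and 40.6 RPM in mNPC and between 27.6 and 42.4 RPM in mESC, and the rest was listed as 0, so a 0 is never read as absence. The mNPC libraries listed 343, 337 and 288 entries above 0, and the mESC libraries listed 464, 401 and 432. The listed values summed to between 948036 and 956318 RPM in mNPC and between 816854 and 871041 RPM in mESC. Pearson's r of log2(RPM + 1) between libraries of a group ran from 0.929 to 0.956 in mNPC and from 0.883 to 0.917 in mESC. How the authors assigned reads to identical copies, or told a mature arm from its hairpin, is not given in the sources used here, so a level summed over copies depends on that rule.

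Single entries were tested with limma on log2(RPM + 1) over 851 entries, at an adjusted p of 0.05 or less. Of these, 354 differed between the cytoplasms, 41.6%: 120 were higher in mNPC (14.1%) and 234 lower (27.5%). Another 276 were at 0 in all 6 libraries and could not be called, being tested only because other libraries listed them. The shares of all entries used below include them, and so are lower than those among the 575 entries listed in some cytoplasm library. Many calls rested on a group listed at 0 throughout: 65 of the higher entries were at 0 in all 3 mESC libraries and 154 of the lower ones in all 3 mNPC libraries. A total of 196 entries stood above 0 in every one of the 6 libraries, and 98 of these (50%) were called, 41 higher (20.9%) and 57 lower (29.1%), with a median log2 difference of -0.53. The groups did not overlap in 167 of them (85.2%). When each library was instead centred on its median, using the 106 entries found in all 27 libraries, that median became 0.37, with 64 higher and 23 lower. The balance of higher and lower calls therefore depended on the scaling.

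**Figure D1:**
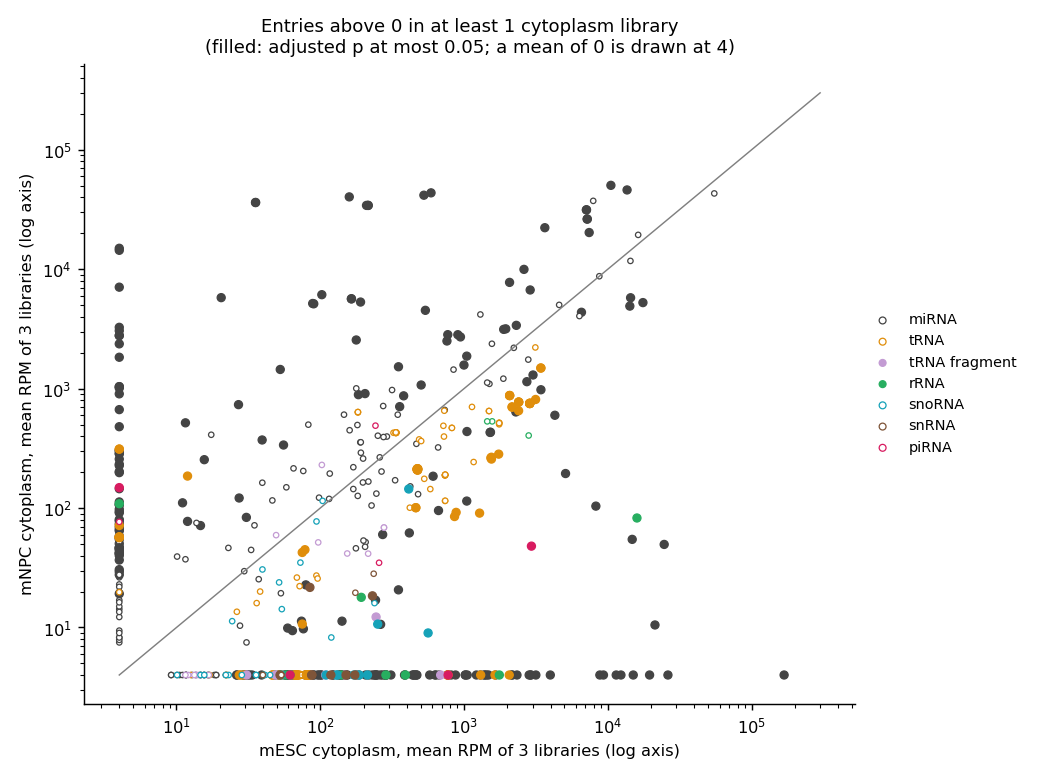
Mean RPM of the 3 libraries of a group on log axes, with mNPC cytoplasm on the vertical axis and mESC cytoplasm on the horizontal axis. Points are the 575 tested entries above 0 in at least 1 of the 6 libraries. Colours show the RNA class, and filled points are those called by limma. The 120 entries higher in mNPC lie above the diagonal and the 234 lower ones below it. Many of both lie at the left or lower edge, where a mean of 0 is drawn.

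The labels were checked against marker miRNAs. Of 18 tested entries of the neural progenitor list (miR-9, miR-92b, miR-137 and miR-181a to miR-181d), 15 were higher in mNPC and 2 lower, against 14.1% and 27.5% of all entries. They summed to 209853, 231336 and 215789 RPM in mNPC, against 19702, 19489 and 23490.2 RPM in mESC. Copies and arms of 1 miRNA count as separate entries here. With these summed by miRNA name, 4 of 7 names were higher and 2 lower, against 25.7% and 33.6% of all names. Of 15 tested entries of the mESC list (the miR-290 to miR-295 and miR-302 and miR-367 clusters), 14 were lower in mNPC and none higher, and all were at 0 in the 3 mNPC libraries. They summed to 78002, 79949.5 and 93945 RPM in mESC, and by name 8 of 8 were lower in mNPC. miR-137, a miRNA of neural progenitors and neurons, was listed at 0 in both cells.

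**Figure D2:**
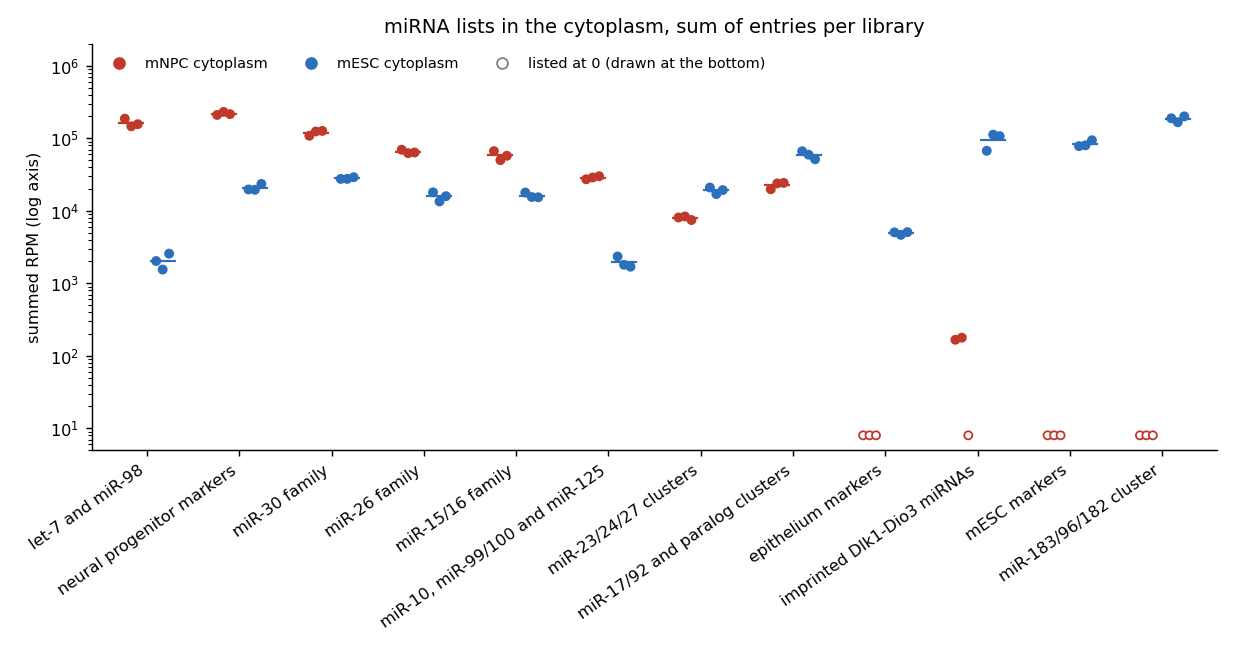
Summed RPM of each miRNA list in the 3 mNPC and 3 mESC cytoplasm libraries, on a log axis; points are libraries, short lines are means and open circles are sums listed at 0. The let-7 and neural progenitor lists are higher in every mNPC library than in any mESC library. The mESC list and the miR-183, miR-96 and miR-182 list are at 0 in mNPC.

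The let-7 family, which opposes stem cell and growth regulators such as LIN28 and MYC, was higher in mNPC across nearly all its entries. Its entries with miR-98 summed to 186742, 146468 and 156625 RPM in mNPC, against 2028, 1547 and 2566 RPM in mESC. Of 18 tested entries, 15 were higher in mNPC (83.3%, against 14.1% of all entries) and none lower. In the tests below, hairpin and arm entries of all copies of a miRNA were summed to 1 value per name; 166 of 280 names differed (59.3%), 72 higher in mNPC (25.7%) and 94 lower (33.6%). Of these 166, 156 kept their call when libraries were centred on their medians, and 2 of the other 10, miR-93 and miR-130a, turned in sign.

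let-7f, transcribed from chromosome 13 within an exon of 6720427I07Rik and from the X chromosome within an intron of Huwe1, was the most abundant member, with 100708, 73899 and 81536 RPM in mNPC, against 1099, 828 and 1419.9 RPM in mESC. let-7i (chr10:122985698-122985719) had 44895, 37652 and 38546 RPM in mNPC, against 165, 149 and 164 RPM in mESC. The log2 difference was 6.28 (SE 1.23, adjusted p = 0.00014) for let-7f and 7.97 (SE 0.25, adjusted p = 4.5e-17) for let-7i by limma. No mESC library came near an mNPC library in either, and let-7i rose 254-fold in the ratio of means.

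let-7a had 11489, 9478 and 10062 RPM in mNPC, against 168, 121 and 247 RPM in mESC. let-7g had 5957, 4929 and 5051 RPM in mNPC, against 209, 149 and 214.1 RPM in mESC. Both were higher in every mNPC library, by 57.9-fold and 27.9-fold in the ratio of means, and let-7c by 34.5-fold. miR-98, beside let-7f in Huwe1, had 2863, 2104 and 2149 RPM in mNPC, against 0 in all 3 mESC libraries. let-7b had 1017, 844 and 853 RPM in mNPC, against 0 in all 3 mESC libraries, and let-7d had 6195, 5208 and 5946 RPM in mNPC, against 0, 0 and 61.4 RPM in mESC. let-7e had 1355, 1536 and 1452 RPM in mNPC, against 0, 63.7 and 94.4 RPM in mESC. No fold is given for these 4, because at least 1 mESC library was listed at 0, but no mESC library reached the lowest mNPC library in any of them. let-7j was at 0 in both cells.

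miR-9, expressed in neural progenitors where it targets regulators of progenitor growth, was among the most abundant miRNAs of mNPC cytoplasm. It had 109976, 110311 and 97194 RPM in mNPC, against 551, 619.7 and 752 RPM in mESC, a log2 difference of 7.37 (SE 1.15, adjusted p = 9.6e-06) by limma. Its 3 genomic copies, within C130071C03Rik on chromosome 13, Gm3764 on chromosome 3 and Mir9-3hg on chromosome 7, carry the same mature sequence and had nearly the same values, so the copies cannot be told apart.

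The miR-181 family split by transcript although its members share the seed ACAUUCA. miR-181a, from chromosomes 1 and 2, had 63579, 79171 and 77133 RPM in mNPC, against 140.5, 0 and 72.4 RPM in mESC. miR-181b, from the same loci, had 27440.1, 31013 and 30591 RPM in mNPC, against 0 in all 3 mESC libraries. Both were thus among the highest in mNPC and at or near the lowest listed values in mESC.

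miR-181c and miR-181d lie together in an intron of Nanos3 on chromosome 8, and miR-181c had 7169, 9000.0 and 8737 RPM in mNPC, against 16580, 14922 and 18145 RPM in mESC. miR-181d had 974, 974 and 989 RPM in mNPC, against 2167, 3757 and 4360.4 RPM in mESC. These 2 were lower in mNPC in every library, by limma with log2 differences of -0.998 (SE 0.17, adjusted p = 3.9e-05) and -1.75 (SE 0.26, adjusted p = 4.8e-06). With centred libraries miR-181d kept its call at -0.84 (adjusted p = 0.02), whereas miR-181c did not, at -0.10 (adjusted p = 0.8). Summed over its members, the seed ACAUUCA was higher in mNPC at 95263, 115363 and 112486 RPM, against 17121, 16249 and 19841 RPM in mESC. Of 255 seeds tested in this way, 54.1% differed, 57 higher (22.4%) and 81 lower (31.8%).

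**Figure D3:**
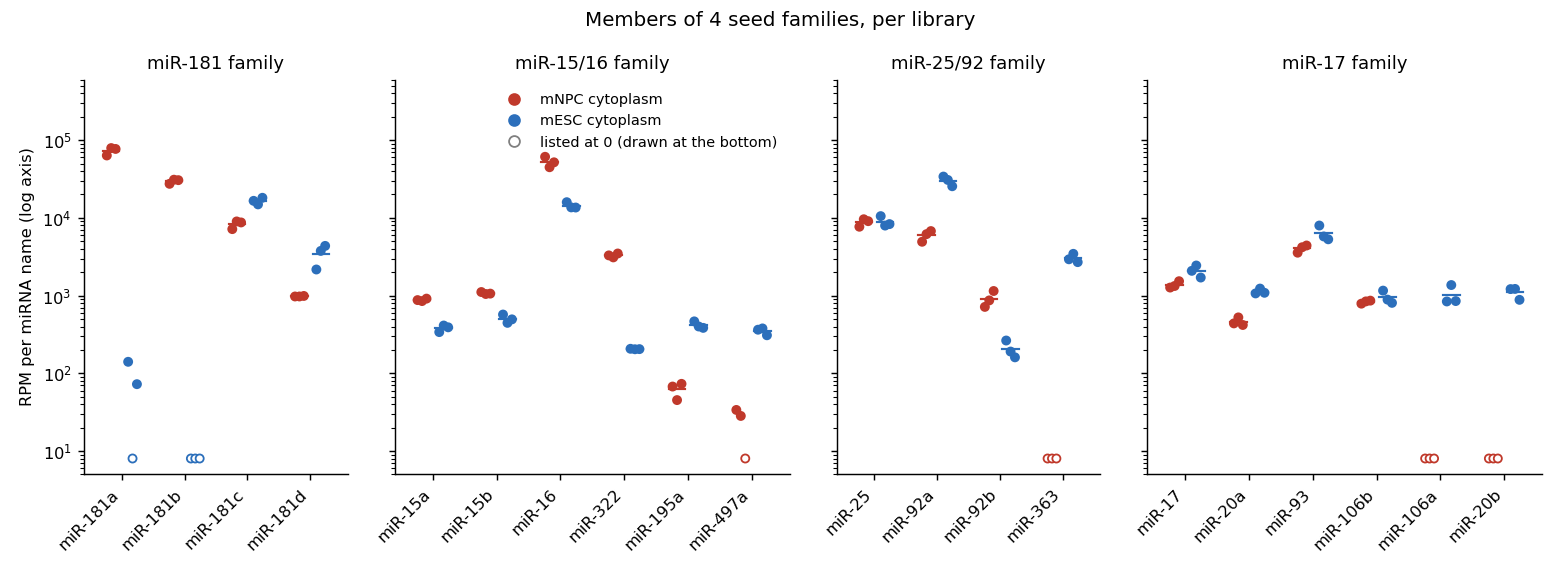
RPM of miRNAs that share a seed, in the 3 mNPC and 3 mESC cytoplasm libraries, on a log axis; points are libraries, short lines are means and open circles are values listed at 0. Within the seed of miR-181, miR-181a and miR-181b are higher in mNPC while miR-181c and miR-181d are higher in mESC.

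miR-125b, a homologue of lin-4 in Caenorhabditis elegans that promotes neural differentiation, had 14341, 14292 and 14789 RPM in mNPC, against 0 in all 3 mESC libraries. miR-351, which shares its seed and lies on the X chromosome, had 5629.7, 6077 and 6657 RPM in mNPC, against 57.9, 102 and 148.0 RPM in mESC. miR-99a, in an intron of Mir99ahg with a copy of miR-125b, had 3129, 3245 and 3396 RPM in mNPC, against 0 in all 3 mESC libraries. All 3 were higher in mNPC in every library, and miR-351 had a log2 difference of 5.98 (SE 0.95, adjusted p = 1.2e-05) by limma. Of 13 tested entries of miR-10, miR-99/100 and miR-125, 7 were higher (53.8%) and 2 lower (15.4%), against 14.1% and 27.5% of all entries.

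miR-125a, the third member with this seed, had 3581, 4487 and 4472 RPM in mNPC, against 1783, 1065 and 1052 RPM in mESC. The groups did not overlap, but the adjusted p by limma was 0.4 with the spread pooled over 9 groups and 0.0014 with the 6 cytoplasm libraries alone. The lower entries were of the Hox cluster miRNAs miR-10a and miR-10b. miR-10a was at 0 in all 3 mNPC libraries, against 121, 420.2 and 192 RPM in mESC, and miR-10b had 0, 33.9 and 0 RPM in mNPC, against 116, 157 and 152.4 RPM in mESC. miR-100 was at 0 in both cells. miR-488, in an intron of the neuronal gene Astn1 on chromosome 1, had 3241, 3434 and 3394 RPM in mNPC, against 0 in all 3 mESC libraries.

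Several families found in most tissues were present in both cells and higher in mNPC by smaller factors. Of 10 tested miR-30 entries, 6 were higher (60%, against 14.1% of all entries) and none lower. miR-30a, the most abundant of these, had 41826, 53939 and 55666 RPM in mNPC, against 10692, 10663 and 10186 RPM in mESC, and averaged 50477 ± 7542 RPM in mNPC and 10514 ± 284 RPM in mESC (SD, n = 3 each). Its log2 difference was 2.25 (SE 0.23, adjusted p = 2.7e-08) by limma. For miR-30d it was 2.61 (SE 0.15, adjusted p = 2e-12), for miR-30e 1.76 (SE 0.23, adjusted p = 1.3e-06) and for miR-30c 1.46 (SE 0.43, adjusted p = 0.0057), so these 4 members moved together, and each stayed higher under every scaling tried. miR-30b, also tested, stood at 3.45 (adjusted p = 0.052 by limma) and was not called. It was called with centred libraries (adjusted p = 0.019) but not with miRNAs scaled alone (adjusted p = 0.087).

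miR-26a, made from introns of the Ctdsp phosphatase genes, had 67000.1, 60367 and 61207 RPM in mNPC, against 16404, 12138 and 14101 RPM in mESC, a log2 difference of 2.15 (SE 0.36, adjusted p = 2.4e-05) by limma. Its relative miR-26b differed by 0.61 (SE 0.31, adjusted p = 0.1) and was not called. miR-103 and miR-107, made from introns of pantothenate kinase genes, differed by 0.72 (SE 0.17, adjusted p = 0.00099) and 2.28 (SE 0.21, adjusted p = 5.3e-09) by limma. With miRNAs scaled alone miR-103 was no longer called.

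The miR-15/16 family, which targets cyclins and BCL2, was higher in mNPC from most of its transcripts and lower from 1. miR-16 had 61145, 44862 and 51909 RPM in mNPC, against 15924, 13651 and 13598 RPM in mESC, a log2 difference of 1.86 (SE 0.22, adjusted p = 2.1e-07) by limma. miR-322, on the X chromosome beside miR-351, had 3291, 3101 and 3481 RPM in mNPC, against 207, 203.7 and 205 RPM in mESC, and differed by 3.997 (SE 0.32, adjusted p = 5.6e-10). miR-15a and miR-15b differed by 1.21 (SE 0.36, adjusted p = 0.0057) and 1.10 (SE 0.43, adjusted p = 0.032), and with miRNAs scaled alone miR-15b was no longer called. Its call was also lost without any 1 library other than mESC replicate 1, with adjusted p from 0.060 to 0.084 by limma.

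The chromosome 11 members of the same seed went the other way. miR-195a had 67.5, 45.2 and 73.1 RPM in mNPC, against 465.6, 400.1 and 384 RPM in mESC. miR-497a had 33.7, 28.2 and 0 RPM in mNPC, against 364, 378 and 309 RPM in mESC. Both were lower in every mNPC library. The limma log2 difference of miR-195a was -2.75 (SE 1.004, adjusted p = 0.023), and -1.86 (adjusted p = 0.14) with centred libraries, where it was no longer called. Without mESC replicate 1 or mNPC replicate 2 the adjusted p was 0.056 and 0.069. The sum over the seed AGCAGCA followed miR-16, at 65887, 49179.8 and 56597 RPM in mNPC, against 17831, 15448 and 15379.5 RPM in mESC.

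miR-34b and miR-34c, made from 1 transcript that p53 activates, were also higher in mNPC. miR-34c had 4609.7, 5015 and 3960.2 RPM in mNPC, against 742, 590.0 and 283 RPM in mESC, a log2 difference of 3.17 (SE 0.35, adjusted p = 9.5e-08) by limma, and miR-34b had 95.6, 67.8 and 77.2 RPM in mNPC, against 0 in all 3 mESC libraries. miR-34a, from another locus, had entries called in opposite directions. Its 5p arm had 157, 164 and 0 RPM in mNPC, against 0 in all 3 mESC libraries, and was higher (adjusted p = 0.023 by limma), a call lost without mESC replicate 1 or 2 or mNPC replicate 1 or 2. Its hairpin entry had 0, 0 and 180.1 RPM in mNPC, against 270.0, 259 and 286 RPM in mESC, and was lower (adjusted p = 0.0057). No library listed both entries above 0. Their sum differed by -0.70 (SE 0.75, adjusted p = 0.47) and was not called, so it gives no direction for miR-34a. Of the miR-148 and miR-152 family, miR-148b differed by 1.46 (SE 0.17, adjusted p = 2.5e-07), while miR-148a was not called at -0.29 (SE 0.25, adjusted p = 0.34) and turned to 0.61 (adjusted p = 0.036) with centred libraries.

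The miR-183, miR-96 and miR-182 cluster, known from sensory organs, gave the highest sum of the lists compared in mESC. All its entries were listed at 0 in mNPC. miR-182 (chr6:30165962-30165986) was at 0 in all 3 mNPC libraries, against 171596, 150140 and 183778 RPM in mESC. miR-183 (chr6:30169711-30169732) was at 0 in all 3 mNPC libraries, against 15536, 14903 and 16028 RPM in mESC, and miR-96 (chr6:30169506-30169528) was at 0 in all 3 mNPC libraries, against 1840.4, 1706 and 957 RPM in mESC. All 4 tested entries of the cluster were lower in mNPC (100%, against 27.5% of all entries). They lie on the minus strand with no annotated host gene, and together made 188972, 166750 and 200763 RPM in mESC.

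The miR-290 to miR-295 cluster (chr7:3218639-3220837), the main cluster of pluripotent mouse cells, was at 0 in all mNPC libraries, against 77972, 79890.1 and 93945 RPM in mESC. Of its 14 tested entries 13 were lower in mNPC (92.9%, against 27.5% of all entries). miR-295 had 26289, 23762 and 32249.8 RPM in mESC. miR-293 had 26274, 31178 and 35507 RPM and miR-292a 21458, 21376 and 22208 RPM there. By seed, AAGUGCU, the cell cycle seed of miR-291a, miR-294 and miR-295, was at 0 in mNPC, against 27002, 24373 and 33400.5 RPM in mESC, and CUCAAAC, that of several 5p arms, at 0 against 28507, 27459 and 32953 RPM. Of the related miR-302 and miR-367 cluster the table held 2 entries, of which miR-302a-3p had 30.3, 59.4 and 0 RPM in mESC and 0 in mNPC, and miR-302d-3p was at 0 in both cytoplasms.

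The miRNAs of the imprinted Dlk1-Dio3 domain (chr12:109563710-109743784), transcribed from the maternal chromosome, made the longest list compared, and most of its names were lower in mNPC. Of 60 tested entries, 42 were lower in mNPC (70%, against 27.5% of all entries) and none higher. At 0 in all 3 mNPC libraries were 39 of the lower ones. The entries summed to 166, 178 and 0 RPM in mNPC, against 67268, 112290 and 107174 RPM in mESC. By name, 35 of 45 were lower, against 33.6% of all names, 42 were at 0 throughout mNPC and 7 were at 0 in both cells.

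miR-127, antisense to the imprinted gene Rtl1, had 69.7, 79.1 and 0 RPM in mNPC, against 17439.6, 29481 and 27878 RPM in mESC. miR-541, in an intron of the noncoding RNA Mirg, had 31.5, 0 and 0 RPM in mNPC, against 14785, 25237 and 23878 RPM in mESC. miR-410, in an exon of Mirg near the distal end of the cluster, was at 0 in all 3 mNPC libraries, against 6423, 10552 and 9504 RPM in mESC. They came from different places in the cluster, and all were at or near 0 in mNPC. miR-411 had 65.2, 98.8 and 0 RPM in mNPC, against 11039.6, 16911 and 17132 RPM in mESC. miR-434, miR-381 and miR-136 were at 0 in mNPC, with 3615, 6159 and 5500.1 RPM, 2825, 4623 and 4505 RPM and 2212, 3569.8 and 3699 RPM in mESC. In mESC the first library was lowest for each of these 7.

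The Sfmbt2 cluster, a repeated set of miRNAs inside an intron of Sfmbt2 on chromosome 2 that is known from stem cells and placenta, was at 0 in mNPC, against 720.3, 1244 and 744 RPM in mESC. Of 7 tested entries 5 were lower (71.4%, against 27.5% of all entries). Their near-identical sequences may share reads, so the members are given as a sum.

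The miR-17/92 cluster and its paralogs, which promote proliferation, were lower in mNPC to degrees that differed between transcripts. Of 24 tested entries 14 were lower (58.3%, against 27.5% of all entries) and none higher. With centred libraries, 11 were lower and 1 higher. Their sum was 19840.1, 23885 and 24281 RPM in mNPC, against 66346, 59406 and 51384 RPM in mESC.

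In the X-linked paralog cluster, miR-363 was at 0 in all 3 mNPC libraries, against 2931, 3447 and 2695 RPM in mESC. miR-20b was at 0 in all 3 mNPC libraries, against 1212, 1218 and 882 RPM in mESC, and miR-106a was at 0 in all 3 mNPC libraries, against 840.3, 1367 and 850.0 RPM in mESC. The X copy of miR-92a-3p had 64.1, 139.8 and 108 RPM in mNPC, against 9293, 9186 and 6316 RPM in mESC. The chromosome 14 copy, in an exon of Mir17hg, had 4278, 5299 and 6190.1 RPM in mNPC, against 21090, 17119 and 14479 RPM in mESC. RefSeq gives both copies the same mature sequence, yet the log2 difference was -6.35 (SE 1.77, adjusted p = 0.0055) at the X copy and -1.74 (SE 0.37, adjusted p = 0.0006) at the chromosome 14 copy by limma. Since the rule that assigned reads to copies is not given, these values may not give the level from each locus.

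From Mir17hg, miR-19a differed by -1.72 (SE 0.23, adjusted p = 1.4e-06) and miR-20a by -1.29 (SE 0.34, adjusted p = 0.0021), both lower in mNPC by limma. miR-19b-3p has a copy in Mir17hg and another in the X-linked cluster, which differed by -1.82 (SE 0.16, adjusted p = 5.5e-09) and -1.82 (SE 0.17, adjusted p = 1.1e-08) with nearly the same values, so the copies cannot be told apart. With centred libraries miR-20a was no longer called, at -0.39 (adjusted p = 0.23). miR-17 and miR-18a were not called, at -0.58 (SE 0.28, adjusted p = 0.08) and -1.47 (SE 0.90, adjusted p = 0.17). The 5p arm miR-92a-1-5p had 587, 739.9 and 469 RPM in mNPC, against 3637, 4474 and 4748 RPM in mESC, and was lower at -2.85 (SE 1.02, adjusted p = 0.028) by limma. Its call was lost without any 1 library other than mNPC replicate 2, with adjusted p from 0.051 to 0.078.

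The third cluster, miR-106b, miR-93 and miR-25, lies within the replication gene Mcm7 on chromosome 5. miR-25 had 7694, 9604 and 9074 RPM in mNPC, against 10538, 7963 and 8318 RPM in mESC. miR-106b had 787, 842 and 861 RPM in mNPC, against 1158, 887 and 806 RPM in mESC. Both overlapped between the cells. miR-93 was called lower at -0.63 (SE 0.23, adjusted p = 0.024) by limma, and with centred libraries turned to 0.27 (adjusted p = 0.22). Without mESC replicate 1 or mNPC replicate 1 it was not called, with adjusted p of 0.14 and 0.093. With centred libraries miR-25 and miR-106b became 0.88 (adjusted p = 0.0032) and 0.72 (adjusted p = 0.00087). miR-92b, a neural progenitor miRNA with the seed of miR-92a, went the other way, with 715, 867 and 1145 RPM in mNPC, against 264, 190.3 and 160.4 RPM in mESC. The sum over that seed, AUUGCAC, was 12698, 15831 and 16517 RPM in mNPC, against 43835, 37434 and 31634 RPM in mESC, a log2 difference of -1.32 (SE 0.28, adjusted p = 0.00033) by limma and -0.42 (adjusted p = 0.13) with centred libraries.

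Of the miR-23/24/27 clusters, only miR-27 was called in the fit of all 27 libraries, lower in mNPC. miR-27b had 5891, 6177 and 5294 RPM in mNPC, against 17539, 12976 and 13456 RPM in mESC. Its log2 difference was -1.33 (SE 0.23, adjusted p = 3.9e-05), and that of miR-27a -1.26 (SE 0.38, adjusted p = 0.0064), by limma, while miR-23a, miR-23b and miR-24 were not called. With centred libraries miR-27a was no longer called, at -0.36 (adjusted p = 0.45). In all, 3 of 9 tested entries of these clusters were lower, both arms of miR-27b and the 3p arm of miR-27a. That share of 33.3% was near the 27.5% of all entries. miR-130a had 4409.5, 4236 and 4439.5 RPM in mNPC, against 6284, 6781 and 6622 RPM in mESC. It was lower at -0.59 (SE 0.14, adjusted p = 0.0011), but with centred libraries turned to 0.31 (adjusted p = 0.13).

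miR-22 and miR-21a were abundant and not called. miR-22 was high in both cells, with 39715, 45870.5 and 43822 RPM in mNPC, against 54881, 49235 and 61084 RPM in mESC. Its log2 difference of -0.35 (SE 0.25, adjusted p = 0.25) by limma turned to 0.55 (adjusted p = 0.036) with centred libraries, so its direction depended on the scaling. miR-31-5p, known from epithelia and tumours, had 56.2, 189 and 40.6 RPM in mNPC, against 592, 649 and 752 RPM in mESC. It was lower at -3.11 (SE 1.03, adjusted p = 0.018) by limma, and was not called with centred libraries, or without mNPC replicate 1 or 3, with adjusted p of 0.059 and 0.078. miR-21a, an abundant miRNA of growing cells, had 42049.7, 40422 and 31169.9 RPM in mNPC, against 7075, 6959 and 9977 RPM in mESC. The groups of miR-21a did not overlap and the log2 difference was 2.25 (SE 1.77, adjusted p = 0.29) by limma. With the 6 cytoplasm libraries alone its adjusted p was 0.00014.

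The balance between the arms of a hairpin was compared where both arms were above 0 in all 6 libraries, which left 10 miRNAs; 2 of them differed (20%), 1 in each direction (10%). In miR-181c, the 5p arm had 4227, 5401 and 5109.7 RPM in mNPC, against 14814, 12492 and 15408 RPM in mESC. The 3p arm had 2942, 3599 and 3627 RPM in mNPC, against 1766, 2430.1 and 2737 RPM in mESC. The 5p arm was lower in mNPC while every 3p value was higher, and the log2 ratio of 5p to 3p differed by -2.11 (SE 0.25, adjusted p = 2e-09) by limma. The lower level of miR-181c given above therefore came from its 5p arm.

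In miR-335, the 5p arm had 1446, 1322 and 1564 RPM in mNPC, against 738, 976 and 822 RPM in mESC, and the 3p arm 110.2, 127.1 and 142.2 RPM in mNPC, against 241, 154.9 and 151 RPM in mESC. The ratio of 5p to 3p was higher in mNPC by 1.28 (SE 0.38, adjusted p = 0.0086) by limma. This call was lost when any 1 mNPC library was left out, with adjusted p of 0.057, 0.088 and 0.42.

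Markers of other cells were read from both cytoplasms, since a culture may hold differentiated cells, and in these bulk libraries more cells of a type and more RNA per cell cannot be told apart. Of 22 tested neuron entries, 3 were higher in mNPC, of miR-128, miR-132 and miR-153, and 2 lower, both of miR-138, against 14.1% and 27.5% of all entries. They summed to 1363, 1588 and 1679.5 RPM in mNPC, against 623, 849 and 819 RPM in mESC. Summed by name, 3 of 9 were higher, miR-132, miR-153 and miR-212, and 1 lower, against 25.7% and 33.6% of all names. By name miR-128 was not called, at 0.56 (adjusted p = 0.25 by limma). With the 6 cytoplasm libraries alone miR-132 and miR-212 were not called, with adjusted p of 0.060 and 0.095. The defining neuronal miR-124 and the motor neuron miR-218 were at 0 in all 6 libraries. miR-153 had 178, 237 and 266 RPM in mNPC, against 0 in all 3 mESC libraries, and miR-132, induced by activity in neurons, had 313, 369.9 and 475 RPM in mNPC, against 0, 67.9 and 50.4 RPM in mESC.

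Of 4 tested glia entries, 3 were higher in mNPC (75%, against 14.1% of all entries), of miR-219a and miR-338. miR-219a, which promotes oligodendrocyte maturation, had 108, 141.2 and 125.9 RPM in mNPC, against 0 in all 3 mESC libraries. miR-338 had 130.5, 147 and 158 RPM in mNPC, against 0 in all 3 mESC libraries, and miR-204 was at 0 in both cells. The glia list summed to 238, 288 and 284 RPM in mNPC and 0 in mESC. The part of such cells in the other differences was not tested.

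The epithelial miR-200 family was at 0 in mNPC, against 5042, 4657 and 5081 RPM in mESC, and 5 of 6 tested entries were lower (83.3%, against 27.5% of all entries). miR-200b, which represses the mesenchymal factors ZEB1 and ZEB2, was at 0 in all 3 mNPC libraries, against 3110.5, 2755 and 2849 RPM in mESC. miR-141 and miR-429, of the same family, were at 0 in mNPC, with 647, 531 and 825 RPM and 769, 759.8 and 913 RPM in mESC.

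Of 8 tested endothelium, mesenchyme and muscle entries, 3 were lower in mNPC (37.5%, against 27.5% of all entries), with sums of 249.7, 345 and 333 RPM in mNPC, against 7629, 5917 and 5607 RPM in mESC. The smooth muscle miRNA miR-143 made most of it, with 146, 206.1 and 232 RPM in mNPC, against 6058, 4567 and 4631 RPM in mESC. The endothelial miR-126a, in an intron of Egfl7, had 103.5, 138.4 and 102 RPM in mNPC, against 1429.9, 1349.8 and 976 RPM in mESC. Both were lower in every mNPC library, and miR-143 by -4.71 (SE 0.24, adjusted p = 3.2e-13) by limma. Of 7 tested microglia and blood entries, 2 were higher (28.6%), of miR-486a and miR-486b, and 4 lower (57.1%), of miR-142a, miR-150 and miR-155. miR-142a and miR-150, both miRNAs of blood cells, were at 0 in mNPC, with 1587, 1774 and 809 RPM and 1835, 2139 and 2430.5 RPM in mESC. miR-486a, a miRNA of red blood cells and muscle, had 349.7, 373 and 205 RPM in mNPC, against 0 in all 3 mESC libraries. These lists thus ran in both directions, and no entry matched the liver miRNA miR-122.

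By RNA class, miRNA took 95.4% ± 0.338 in mNPC and 82.7% ± 4.28 in mESC of the listed reads (SD, n = 3 each), a difference of 12.7 percentage points. The libraries were at 95.8, 95.3 and 95.1% in mNPC, against 78.3, 82.8 and 86.9% in mESC. The groups did not overlap, and the exact permutation test, two-sided, gave p = 0.1, the smallest that 3 against 3 libraries allow. The same p was reached by every class below, and stayed at 0.1 when adjusted over the 7 classes. Shares of a fixed total are not independent, so a gain of 1 class is a loss of the others.

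**Figure D4:**
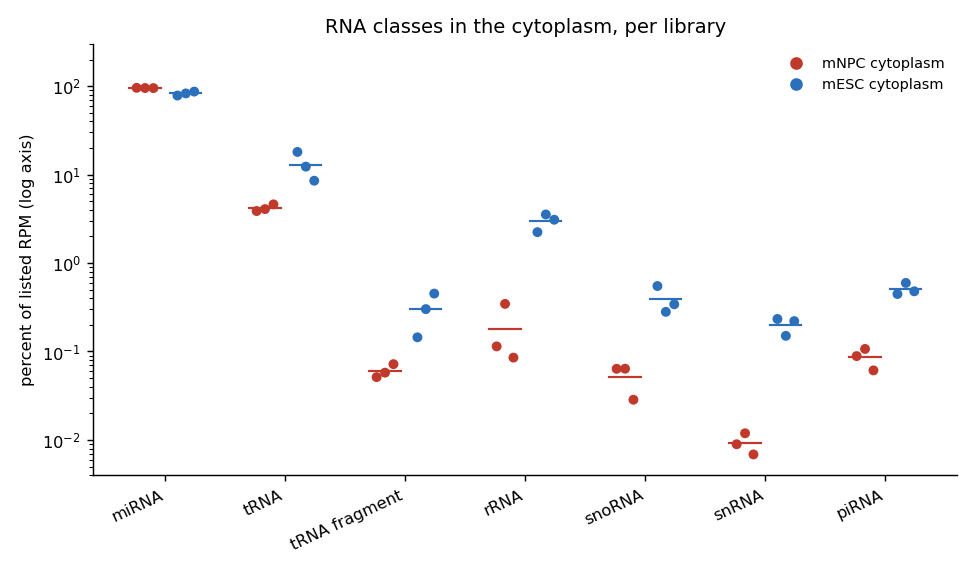
Share of listed RPM, in percent on a log axis, of each deposited RNA class in the 3 mNPC and 3 mESC cytoplasm libraries; points are libraries and short lines are means. miRNA stands at 95.4% in mNPC and 82.7% in mESC, and each of the other 6 classes is lower in mNPC.

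tRNA made 4.19% ± 0.378 in mNPC and 13% ± 4.79 in mESC, a difference of -8.78 percentage points. The libraries were at 3.87, 4.08 and 4.61% in mNPC, against 18.1, 12.3 and 8.53% in mESC, where the first was highest. rRNA made 0.182% ± 0.143 in mNPC and 2.96% ± 0.665 in mESC, and snoRNA, snRNA, piRNA and tRNA fragments each made less. Of the non-miRNA reads alone, however, the tRNA share was 18.1 percentage points higher in mNPC, so the lower tRNA share above depended on counting miRNA in the total.

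Of 159 tested tRNA entries, 9 were higher in mNPC (5.66%) and 73 lower (45.9%), against 14.1% and 27.5% of all entries. Of the lower ones, 33 were at 0 throughout mNPC. Among the 77 above 0 in all 6 libraries the median log2 difference was -1.16, against -0.53 over all 196 such entries. With centred libraries, 16 were higher and 47 lower. The values do not tell full-length tRNA from fragments, and near-identical genes of 1 tRNA may share reads, so entries of an amino acid are not independent.

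The difference was unequal among tRNA families. Cysteine tRNA was at 0 in mNPC, against 322.8, 769 and 671 RPM in mESC, with 7 of 7 tested entries lower. Lysine tRNA summed to 10394, 11321 and 12622 RPM in mNPC, against 39569, 32089.5 and 26919 RPM in mESC, with 11 of 18 lower. Glycine tRNA summed to 2699.7, 2843 and 3197 RPM in mNPC, against 9418, 10649.6 and 6606 RPM in mESC, with 17 of 22 lower and 2 higher, tRNA-Gly-CCC-2-1 and tRNA-Gly-CCC-2-2. In each of these the groups did not overlap.

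**Figure D5:**
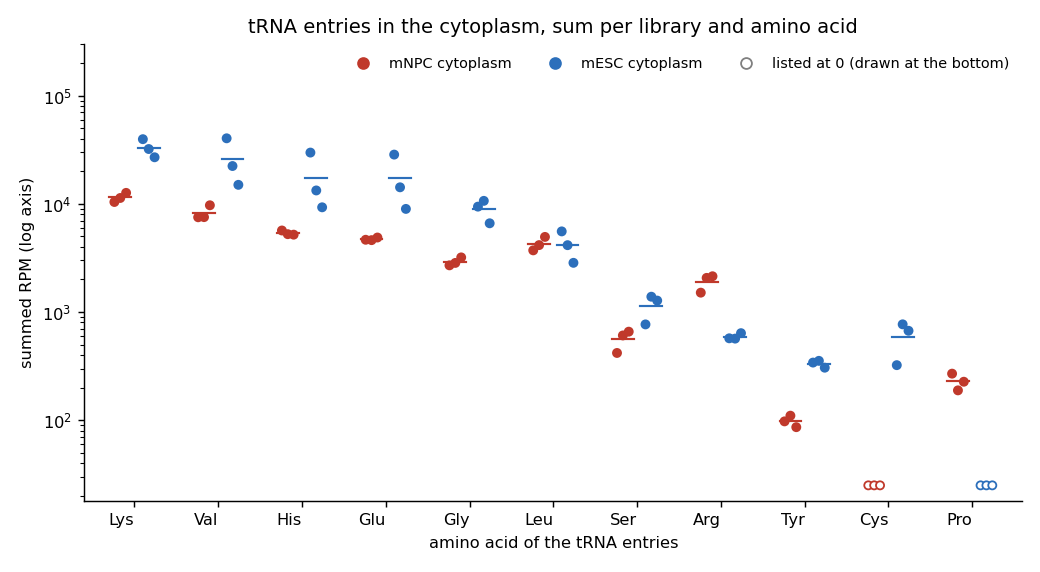
Summed RPM of tRNA entries by amino acid in the 3 mNPC and 3 mESC cytoplasm libraries, on a log axis; points are libraries, short lines are means and open circles are sums listed at 0. Arginine and proline tRNA are higher in mNPC, and cysteine tRNA is at 0 there.

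Glutamate tRNA summed to 4653, 4615 and 4879.9 RPM in mNPC, against 28499.5, 14209 and 8971 RPM in mESC. Its sums did not overlap, but only 1 of 15 tested entries was called, and the mESC libraries were uneven. The called entry was tRNA-Glu-CTC-1-7, named after its values were seen. Arginine tRNA was higher in mNPC by sum, at 1509.5, 2067 and 2139.9 RPM, against 571, 568 and 638 RPM in mESC, with 0 of 6 tested entries called. Proline tRNA had 269, 189 and 227 RPM in mNPC and 0 in mESC, with 4 of 4 tested entries higher.

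Genes of 1 anticodon also differed. tRNA-Gly-CCC-4-1 had 74.9, 89 and 91 RPM in mNPC, against 893, 1003 and 682 RPM in mESC, a log2 difference of -3.31 (SE 0.39, adjusted p = 3.6e-07) by limma. tRNA-Gly-CCC-2-1 had 293.1, 353 and 289 RPM in mNPC, against 0 in all 3 mESC libraries. The same anticodon was thus lower in mNPC from 1 gene and at 0 in mESC from the other, which was named after its values were seen. tRNA-Val-CAC-3-1 had 233, 251 and 365 RPM in mNPC, against 2623, 1636 and 969.5 RPM in mESC, and differed by -2.53 (SE 0.41, adjusted p = 2.9e-05), whereas tRNA-Val-CAC-2-1 overlapped between the cells at -0.46 (SE 0.38, adjusted p = 0.41). tRNA-Lys-CTT-2-1, among the most abundant, had 1333, 1513 and 1618 RPM in mNPC, against 3849.7, 3893 and 2542 RPM in mESC, and differed by -1.18 (SE 0.35, adjusted p = 0.0087), a call that centred libraries did not keep. The valine genes tRNA-Val-AAC-2-1, tRNA-Val-AAC-2-2 and tRNA-Val-AAC-3-1 were lower in mNPC by -2.44, -2.45 and -2.48 on the log2 scale, with nearly equal values in each library.

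Of 28 tested tRNA fragments, 6 were lower in mNPC and none higher, and the 21.4% lower was below the 27.5% of all entries. tRNA-Thr-AGT-6-1-tRF5, a fragment from the 5′ side, was at 0 in all 3 mNPC libraries, against 150.2, 743 and 1171 RPM in mESC. Its mESC libraries were uneven, and the adjusted p by limma was 1.3e-08.

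Small nucleolar and nuclear RNAs were low in both cytoplasms. Of 196 tested snoRNA entries, 166 were at 0 in all 6 libraries, 10 were lower in mNPC (5.10%, against 27.5% of all entries) and none higher. Snord69, a C/D box snoRNA that guides rRNA methylation, had 148.4, 147 and 138.1 RPM in mNPC, against 402, 407 and 428 RPM in mESC, a log2 difference of -1.51 (SE 0.27, adjusted p = 8.4e-05) by limma, which was not called with centred libraries. Snord49a had 27, 0 and 0 RPM in mNPC, against 846, 454 and 388 RPM in mESC. Of 25 tested snRNA entries 8 were lower and none higher, and the 32% lower was near the 27.5% of all entries.

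Among 14 tested rRNA entries, 8 were lower (57.1%) and 1 higher (7.14%), against 27.5% and 14.1% of all entries. Rn18s-rs5, an 18S rRNA-related sequence on chromosome 17, had 0, 0 and 248 RPM in mNPC, against 11808, 19844 and 16229 RPM in mESC. The higher entry was n-R5-8s1, named after its values were seen, with 92.2, 96 and 138.1 RPM in mNPC, against 0 in all 3 mESC libraries. Both cells had been depleted of rRNA before sequencing, and the efficiency of that step was not measured here. Of 11 tested piRNA entries, mmu_piR_000362 was higher, and mmu_piR_011982, mmu_piR_021807 and mmu_piR_022956 were lower, shares of 9.09% and 27.3% that were near the 14.1% and 27.5% of all entries. mmu_piR_011982 had 91.3, 52.7 and 0 RPM in mNPC, against 2831, 3636 and 2367 RPM in mESC.

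Whether the difference between the cells was itself different in the other fractions was tested with interactions. Against nucleoplasm, 96 of 851 entries differed (11.3%), 62 with a higher cytoplasmic difference (7.29%) and 34 with a lower one (4%). Among the 169 entries above 0 in every mNPC and mESC library of both fractions, 0 were called by limma (0%), with 6 at an unadjusted p under 0.05 (3.55%). The nucleoplasm values stood near the cytoplasm ones: for let-7i-5p the log2 difference was 7.97 in cytoplasm and 7.86 in nucleoplasm, and for miR-30d-5p 2.61 and 2.92.

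Against chromatin, 262 entries differed (30.8%), 101 higher (11.9%) and 161 lower (18.9%), and 46 of 118 among entries above 0 in every mNPC and mESC library of both fractions (39%). Of the 418 miRNA entries, 112 had a lower cytoplasmic difference and 28 a higher one. miR-130a-3p was lower in mNPC cytoplasm by -0.59 on the log2 scale and higher in mNPC chromatin by 0.87, an interaction of -1.46 (adjusted p = 1.1e-05) by limma. miR-27b-3p differed by -1.31 in cytoplasm and 0.11 in chromatin, an interaction of -1.42 (adjusted p = 0.002). Of the 196 snoRNA entries, 36 had a higher and 17 a lower cytoplasmic difference, and most were at 0 in both cytoplasms.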

How the data were processed

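The deposited table holds RPM for each annotated small RNA in 27 libraries, reads that the authors scaled to a common library total. The sources used here give no aligner, counting rule or build. Entry coordinates equalled the GENCODE M21 annotation of GRCm38 for 285 of 288 entries with an Ensembl identifier, and RefSeq for 389 of 395 matched miRNA entries. The depth of the libraries is unknown, so no counting intervals are given.

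From the RPM, limma 3.58.1 in R 4.3.3 was run on log2(RPM + 1) with its trend and robust options. It covered 851 entries that reached 1 RPM in 3 or more libraries. Log2 differences are on that scale, while folds are ratios of mean RPM. Where a group was listed at 0, the size of a log2 difference depends on the value put in place of 0. For miR-181b it was 14.86, and 8.97 with the common floor. All 27 libraries entered the fit as 9 groups, leaving 18 residual degrees of freedom. Benjamini-Hochberg adjustment ran over all entries of a contrast, with a threshold of 0.05. Entries were also summed by miRNA name and by seed and tested in the same way, and arm ratios were tested in the 6 cytoplasm libraries. Class shares were compared by an exact permutation test. The code was tested on simulated data. Another pseudocount, a common floor, stricter and no filters, centred libraries, miRNAs scaled alone, the 6 libraries alone, a replicate block, plain limma and leaving out each library were tried as alternatives.

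The entries, names and lists were chosen with earlier results of these data known. Named were the 12 called entries of largest difference in each direction among those above 0 in all 6 libraries, the 8 most abundant called entries listed at 0 in the other cell, the 8 most abundant entries of each cell, the 3 of each class, the members of the lists, the 8 largest called names, seeds and arm balances, and the 6 entries of smallest p in each interaction.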

Additional observations from a re-analysis of the deposited data

Results flagged for a closer look

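The difference between mNPC and mESC was itself different between cytoplasm and nucleoplasm for 96 entries by the interaction in limma. The 6 with the smallest p are given here with the cytoplasmic minus the nucleoplasmic log2 difference. When values under a common floor of 59.1 RPM were raised to it, 5 of the 6 lost their call, and Snord65 kept it at 2.96 (adjusted p = 1.1e-05). tRNA-Tyr-GTA-1-1 (-5.71) had 0, 0 and 0 RPM in mNPC cytoplasm, against 46.3, 63 and 46.2 RPM in mESC cytoplasm, and was at 0 in the nucleoplasm of both. tRNA-Tyr-GTA-1-4 stood at -5.76 and the fragment tRNA-Leu-CAG-2-2-tRF3 at -5.60. miR-466n-3p (5.48) was listed only in mESC nucleoplasm among these fractions, at 36.1, 42.1 and 55.1 RPM. Snord65 (8.85) was at 0 in both cytoplasms and had 0, 0 and 0 RPM in mNPC nucleoplasm, against 574, 347 and 485.9 RPM in mESC nucleoplasm.

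The chromosome 2 copy of miR-181b-5p stood at 6.09. It had 13869.6, 15643 and 15426 RPM in mNPC cytoplasm and 0 in mESC cytoplasm. In nucleoplasm it had 15249.9, 16183 and 17508 RPM in mNPC, against 123.9, 65.1 and 48.2 RPM in mESC. miR-181b was thus higher in mNPC in both fractions.

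Between cytoplasm and chromatin the difference was itself different for 262 entries. The miR-16-1 hairpin stood at -13.96, and the chromosome 14 and chromosome 3 copies of miR-16-5p at 12.91 and 12.89. The hairpin was at 0 in both cytoplasms and had 21219, 14449 and 13249 RPM in mNPC chromatin, against 0, 0 and 0 RPM in mESC chromatin. In mNPC chromatin the chromosome 14 copy of miR-16-5p had 0, 0 and 0 RPM, against 2398, 1821 and 2154 RPM in mESC chromatin. In mNPC chromatin miR-16 was thus listed under its hairpin, and the mature entries do not give its level there. Gm24253 and Snord1c (10.12 each) were at 0 in both cytoplasms, and Gm22357 stood at 8.76. Gm24253 had 0, 0 and 0 RPM in mNPC chromatin, against 1061, 1298 and 1004 RPM in mESC chromatin.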

How the results depend on the processing

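Restricted to values above 0 in all libraries compared, 41 entries were higher in mNPC and 55 lower, 33 and 16 names, 15 and 8 seeds, 0 and 0 entries in the interaction with nucleoplasm, and 20 and 26 in that with chromatin, where fewer features were tested. With miRNAs scaled alone, 134 entries were lower, of miRNAs only. With a common floor, the higher entries were 39 in the interaction with nucleoplasm and 165 in that with chromatin. Centred libraries moved the median over the 196 entries above 0 throughout to 0.37, against -0.53, and turned miR-130a (0.31, name and 3p entry), miR-106b (0.72), miR-148a (0.61), miR-22 (0.55), miR-25 (0.88) and miR-93 (0.27). As shares of the full RPM scale, miRNA differed by 20.8 and piRNA by -0.347 percentage points. Without miRNA in the total the differences were 18.1 for tRNA, -0.643 for tRNA fragments, -14.2 for rRNA, -1.10 for snoRNA, -1.01 for snRNA and -1.17 for piRNA.

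Replicate numbers did not pair the mNPC with the mESC cytoplasm libraries: deviations of same-numbered libraries correlated at 0.123, 0.125 and -0.236 over 196 entries. Whether same-numbered libraries of different fractions of a line share a sample was not tested. The interactions treat them as independent. With replicate number as a block, 121 entries were higher and 237 lower, and no arm balance was higher (0, against 1), miR-335 having an adjusted p of 0.098 by limma.

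Leaving out 1 library at a time gave 111 to 125 higher and 220 to 240 lower entries, 64 to 75 and 91 to 97 names, 50 to 61 and 76 to 84 seeds, and 0 to 1 higher and 1 to 1 lower arm balances. The interactions gave 56 to 77 and 34 to 38 entries with nucleoplasm, and 82 to 120 and 147 to 178 with chromatin. The share differences ran from 10.6 to 14.8 for miRNA, -11.0 to -6.24 for tRNA, -0.316 to -0.163 for tRNA fragments, -3.14 to -2.48 for rRNA, -0.394 to -0.259 for snoRNA, -0.218 to -0.176 for snRNA and -0.452 to -0.377 for piRNA. Of 118 called names that the lists or the text name, 99 kept direction and call under every alternative that tested them, as did 16 of 16 seeds, 6 of 6 interactions with chromatin and 1 of 6 with nucleoplasm, where the common floor ended the other 5. The cause of the other changes was not tested, and the unknown depth limits every value near the lowest one listed.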

Other observations

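Other miRNAs outside the lists, chosen after their values were seen, also separated the cytoplasms. Among those present in both cells, miR-151, in an intron of the kinase gene Ptk2, had 16172, 18109.6 and 18923 RPM in mNPC, against 4431, 4720.2 and 4911 RPM in mESC. miR-298 had 20255, 18606 and 22027 RPM in mNPC, against 6904, 8307 and 7062 RPM in mESC. miR-340 had 3473, 3005 and 2782 RPM in mNPC, against 810.0, 857 and 693 RPM in mESC. These 3 were higher in every mNPC library, with log2 differences of 1.92 (SE 0.20, adjusted p = 4.3e-08), 1.45 (SE 0.26, adjusted p = 5.2e-05) and 1.97 (SE 0.24, adjusted p = 4.7e-07) by limma. miR-532 and miR-676, both on the X chromosome, differed by 2.13 (SE 0.27, adjusted p = 6.3e-07) and 3.29 (SE 0.43, adjusted p = 1.2e-06). miR-184 had 648, 412.3 and 380.3 RPM in mNPC, against 0 in all 3 mESC libraries, and miR-384 had 368.9, 409.5 and 357 RPM in mNPC, against 0 in all 3 mESC libraries.

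In the other direction, miR-205, known from stratified epithelia, was at 0 in all 3 mNPC libraries, against 1435, 1443 and 1769 RPM in mESC. miR-708 was at 0 in all 3 mNPC libraries, against 654.3, 711 and 671 RPM in mESC. miR-101a, which targets the Polycomb enzyme EZH2, had 681, 630.5 and 602 RPM in mNPC, against 2495, 2151 and 2355 RPM in mESC, and was lower at -1.87 (SE 0.27, adjusted p = 4.5e-06) by limma. miR-140, a cartilage miRNA, had 1104, 1406 and 1393 RPM in mNPC, against 3331, 3268 and 2651 RPM in mESC, and its call at -1.25 (SE 0.26, adjusted p = 0.00023) was lost with centred libraries, at -0.34 (adjusted p = 0.23).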
